A study of Bos indicus and Bos taurus with 17 samples.

Results

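The genes described here encode the proteins of the mitochondrial ribosome. They were taken from the gene table of a study of cells captured from the milk of Kashmiri and Jersey cattle, as every entry whose symbol begins with MRPL or MRPS followed by a digit, including entries in which such a symbol was joined with that of another gene. The choice gave 70 genes of 21631 distinct names in the table. By name, 44 were MRPL genes of the large subunit and 26 were MRPS genes of the small subunit. They occupied 71 rows because MRPL33 had 2, and for a repeated name the row with the higher mean was used. MRPL33 was listed at 0 in every group and was left out of what follows. The other 69 genes (43 MRPL and 26 MRPS) had at least 1 FPKM (a level counted in sequenced fragments and corrected for transcript length and library depth) in all 6 groups. MRPL53, MRPL57 and MRPS6 stood in entries joined with CCDC142, SAP18 and a gene known only by its Ensembl number, so their values cannot be told apart from those of these partners.

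Mitochondria have their own ribosome, which translates the few messages of the mitochondrial genome, all of them for subunits of the respiratory chain and the ATP synthase. Its RNA is made inside the organelle, while all of its proteins are encoded in the nucleus, translated in the cytosol and imported. Compared with the bacterial ribosome from which it descends it has less RNA and many added proteins, and it sits at the inner membrane, into which its products are inserted. The secreting mammary epithelial cell synthesises large amounts of protein, fat and lactose and draws on mitochondrial ATP and citrate.

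The samples came from Kashmiri cattle, an Indian hill breed, and Jersey cattle, a dairy breed. They were taken at 3 stages of lactation, on D15, D90 and D250. The labels listed 17 samples, 3 in each group of breed and day except Jersey D90, which had 2. All of them were from the 2nd or 3rd lactation. The Kashmiri D90 and Jersey D250 samples were all from the 2nd, while each other group held both. Lactation number thus differed between the groups compared, and its part was not tested. Milk was taken in March for D15, July for D90 and December for D250, so stage and season cannot be told apart. The cells were captured with beads carrying an antibody to cytokeratin 18, a keratin of luminal epithelium, and no agent was given. The table gave 1 FPKM value for each group, with no replicate and no read number behind it, so no difference below has an error or a test. Differences are given as log2(FPKM + 1). A gene entered a comparison with at least 1 FPKM in either group, and was said to have risen or fallen when the difference reached 1 in size, with Jersey taken relative to Kashmiri between breeds. "Higher" and "lower" describe the sign alone.

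The captured cells carried the epithelial keratin and adhesion genes, but the lists of marker genes also showed other cells. The summed FPKM of 10 epithelial markers, milk proteins left aside, was 5780, 679 and 2570 in Kashmiri cattle at D15, D90 and D250, and 2658, 98.2 and 1364 in Jersey cattle. LALBA, the lactose synthase subunit, was listed at 0 at D15 in both breeds, and CSN2, the beta-casein gene, was listed at 0 in every group but Jersey D90. In milk-secreting cells such zeros may be failed estimates rather than levels. The paper lists LALBA and CSN2 as highly expressed at each day in both breeds, so these zeros cannot be read as levels. Whether they also touched the FPKM scale of the D15 groups is not known, which bears on each D15 level and each change from D15. Neutrophil markers (8 of 12 found) summed to 203, 526 and 652 in Kashmiri cattle and to 5156, 6080 and 14607 in Jersey cattle. Macrophage markers summed to between 109 and 491 in Kashmiri and between 1014 and 2145 in Jersey cattle. Markers of T and NK cells were highest in Kashmiri D90, at 1677, and lowest in Jersey D250, at 103. B cell markers lay between 7.11 and 68.9, and red blood cell markers stayed under 1 in every group. In pooled cells of this kind, fewer cells of a type and less RNA per cell cannot be told apart.

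The mitochondrial ribosomal protein genes were expressed at moderate levels, above the typical gene, and their median was highest at D15 in both breeds, although one rescaling turned the order of D15 and D250 in Kashmiri cattle. Their median was 30.7 FPKM in Kashmiri D15, 19.5 in Kashmiri D90 and 22.0 in Kashmiri D250. In Jersey cattle it was 31.1, 19.3 and 14.6 at the same days. The median over all named genes with at least 1 FPKM in the group lay between 7.72 and 9.58. Together the 69 genes held 0.509%, 0.265% and 0.432% of the summed FPKM of named genes at the 3 days in the Kashmiri breed, and 0.527%, 0.275% and 0.163% in the Jersey breed. Kashmiri D15 was the highest of the 6 groups for 43 of the 69 genes and Jersey D15 for 10. Jersey D250 was the lowest for 46. These counts hold for the deposited scale and were not made over all named genes.

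The genes were not expressed evenly, and the unevenness was greatest at D15. At least 100 FPKM was reached by 17 genes in Kashmiri D15 and 11 in Jersey D15, but by 2, 2, 1 and 0 in Kashmiri D90, Kashmiri D250, Jersey D90 and Jersey D250. The SD of the log2 level between the genes was 1.65 in Kashmiri D15 and 1.58 in Jersey D15. It lay between 1.04 and 1.12 in the other 4 groups. Over all named genes the SD stayed between 1.91 and 2.30. The order of the genes was alike in the breeds: levels in Kashmiri and Jersey cattle correlated over the 69 genes with Pearson's r of 0.98 at D15, 0.92 at D90 and 0.95 at D250, as a description over genes of pooled groups normalised together.

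**Figure D1:**
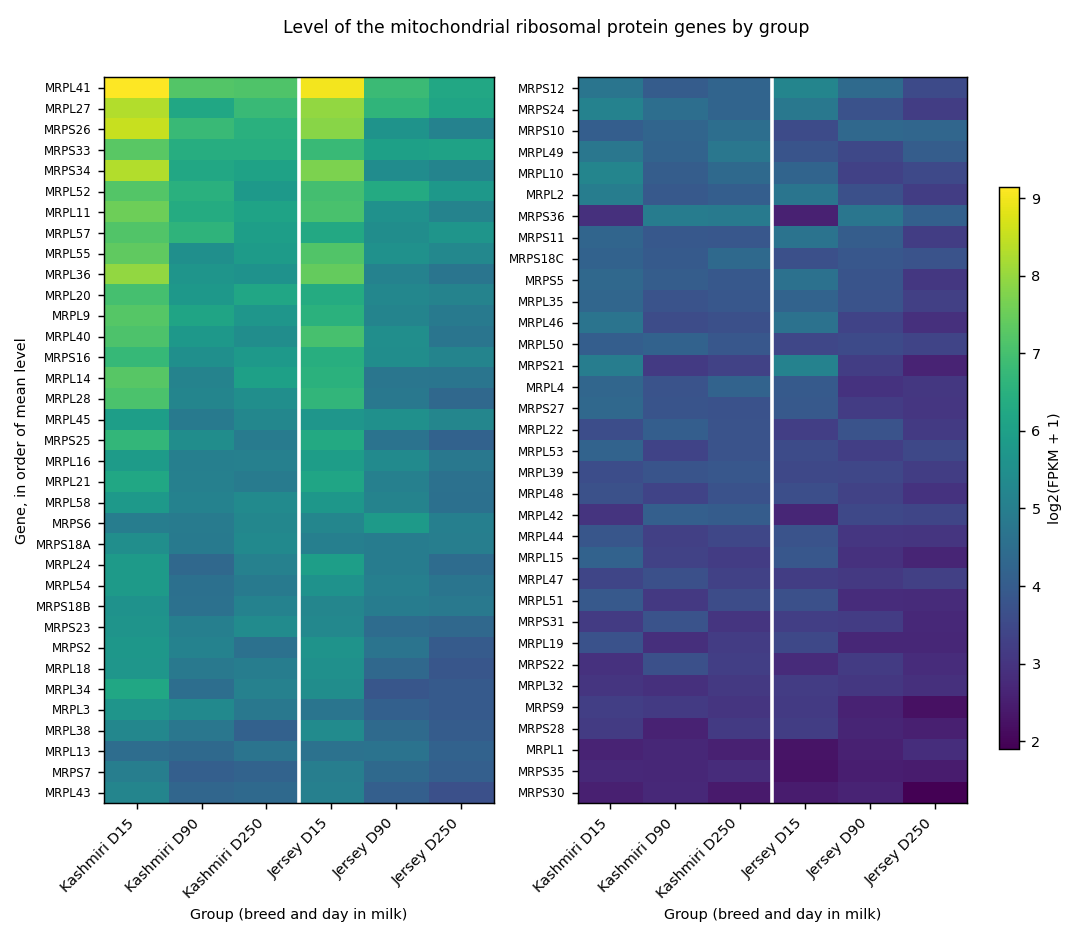
Level of each of the 69 genes, as log2(FPKM + 1) on the colour scale, in the 6 groups of breed and day, with the genes in order of their mean level and a white line between the breeds. The bright upper left cells show the D15 groups, where 17 Kashmiri and 11 Jersey values reached 100 FPKM.

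MRPL41, a large subunit protein with no bacterial counterpart, had the highest level in each group. It stood at 564, 146 and 140 FPKM in Kashmiri cattle at D15, D90 and D250, and at 513, 113 and 74.7 FPKM in Jersey cattle. MRPL27, the counterpart of the bacterial L27 protein that reaches towards the peptidyl transferase centre, had 317, 72.9 and 111 FPKM in Kashmiri and 251, 99.5 and 69.7 FPKM in Jersey cattle. For both genes the D15 value was the highest of each breed by a wide margin, and no D90 or D250 value overlapped with either D15 value.

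Among the small subunit genes, MRPS26, MRPS34 and MRPS33 had the highest mean levels, and none of them has a bacterial counterpart. MRPS26 had 367, 111 and 89.4 FPKM in Kashmiri and 231, 48.1 and 33.9 FPKM in Jersey cattle. MRPS34, in which mutations cause Leigh syndrome in people, had 318, 74.2 and 66.9 FPKM in Kashmiri and 210, 41.8 and 35.2 FPKM in Jersey cattle. MRPS33 was flatter, at 155, 84.2 and 83.5 FPKM in Kashmiri and 111, 63.4 and 66.3 FPKM in Jersey cattle.

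At the other end were MRPS30, MRPS35, MRPL1, MRPS28 and MRPS9. MRPS30, which despite its name sits in the large subunit, had 4.77, 5.70 and 4.35 FPKM in Kashmiri and 4.52, 5.13 and 2.73 FPKM in Jersey cattle. MRPL1, the protein of the L1 stalk where the spent tRNA leaves, had 5.21, 5.53 and 4.94 FPKM in Kashmiri and 3.82, 4.88 and 6.24 FPKM in Jersey cattle. Values of MRPS35, MRPS28 and MRPS9 ranged from 3.71 to 8.49 FPKM. None of the 5 rose or fell in any comparison.

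From D15 to D90 most mitochondrial ribosomal protein genes had lower values in both breeds, and a smaller number of them passed the limit. In Kashmiri cattle 58 of 69 genes were lower at D90, 23 fell and 2 rose, with a median difference of −0.70. Of all named genes compared, 18.8% fell and 14.7% rose, with a median of −0.01. In Jersey cattle 57 of 69 genes were lower, 21 fell and 1 rose, with a median of −0.78. There 16.9% of all named genes fell and 12.8% rose, with a median of −0.07. The genes that fell were 19 in common, which was 82.6% of the Kashmiri list and 90.5% of the Jersey list. They included MRPL41, MRPL27, MRPS26 and MRPS34 above.

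MRPL36, the counterpart of the small zinc-binding bacterial L36 protein, had the lowest difference of all in both breeds. In the Kashmiri groups it had 247 FPKM at D15, then 50.4 and 47.5, and in the Jersey groups 173 FPKM, then 33.3 and 25.2. The D90 differences were −2.27 and −2.34. MRPL27 followed in Kashmiri cattle with −2.11, MRPS34 had −2.08 and −2.30, and MRPL41 had −1.94 and −2.18 in Kashmiri and Jersey cattle. MRPS26 fell by 1.71 in Kashmiri and by 2.24 in Jersey cattle.

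The epithelial marker sum moved with this step in both breeds, from 5780 to 679 in Kashmiri and from 2658 to 98.2 in Jersey cattle, and its part in the result was not tested. T and NK cell markers went from 446 to 1677 in Kashmiri cattle but from 303 to 178 in Jersey cattle. Neutrophil markers went from 203 to 526 and from 5156 to 6080, and macrophage markers from 109 to 483 and from 1014 to 2145. The Jersey macrophage sum was carried mainly by CD68, which went from 169 to 1211 FPKM. C1QA, C1QB, C1QC and MARCO were lower at D90 in Jersey cattle, and the other macrophage markers were higher. The median log2 level of the macrophage list went from 2.87 to 4.59 in Kashmiri cattle but from 6.38 to 5.87 in Jersey cattle. The medians of the 69 genes stayed negative when FPKM was rescaled by the upper quartile (−0.54 and −0.64) or to the sum of the named genes without milk protein genes (−0.40 and −0.53).

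**Figure D2:**
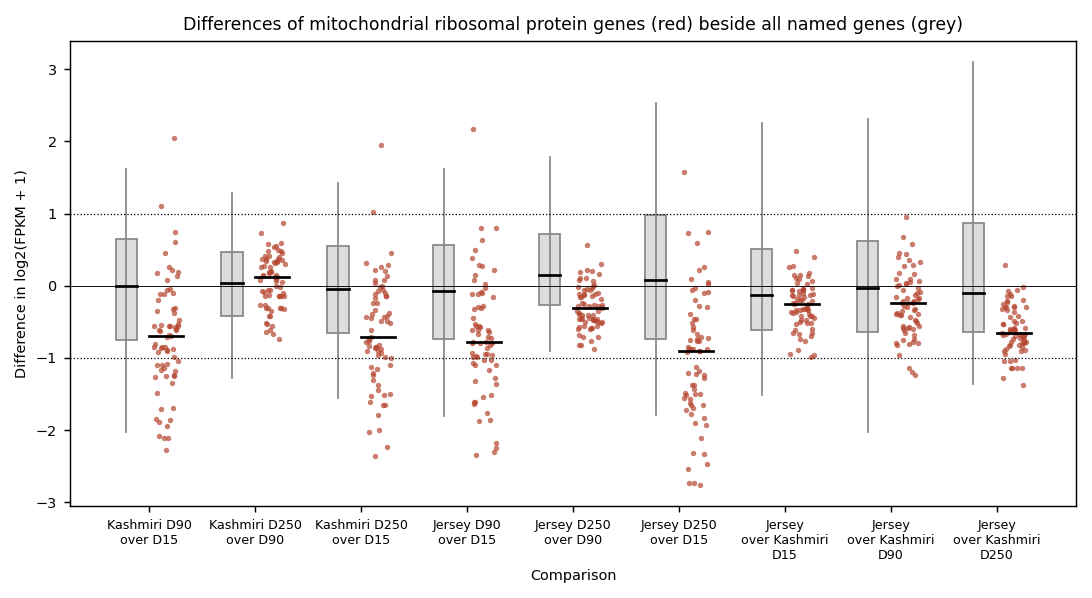
Difference in log2(FPKM + 1) in the 9 comparisons. Red points are the 69 genes with their median as a black bar, and grey boxes are the quartiles of all named genes compared, with the median and a line from the 5th to the 95th percentile. Dotted lines mark a difference of 1 either way. The medians of the 69 genes lie at −0.70 and −0.78 for D90 over D15 in Kashmiri and Jersey cattle, and at −0.65 for Jersey over Kashmiri at D250.

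The size of the D90 change was set against the level that a gene had at D15 in the other breed. That value did not enter the change itself, but D15 levels correlated between the breeds with r of 0.98. It was therefore close to the value subtracted. As levels were more spread at D15 than at D90, a negative relation was largely given beforehand, in either direction. It cannot be read as a separate result. Among the 23 genes with the highest level in Jersey D15 (48.2 to 513 FPKM), 17 fell in Kashmiri cattle and none was higher. Their median was −1.25. Of the 23 genes with the lowest level (3.74 to 13.6 FPKM), none fell and 11 were higher, with a median of −0.04. The middle genes lay between, with 6 falls and a median of −0.61. With the breeds exchanged, 16 of 23 genes with high, 5 of 23 with intermediate and 0 of 23 with low Kashmiri D15 levels fell. The medians of these sets in Jersey cattle were −1.37, −0.80 and −0.08.

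Over the 69 genes the log2 level in Jersey D15 correlated with the Kashmiri change with Pearson's r of −0.80, and the level in Kashmiri D15 with the Jersey change with r of −0.75. Over all named genes with at least 1 FPKM at D15 the corresponding values were −0.07 and −0.36. For the change from D15 to D250 they were −0.83 and −0.73 over the 69 genes, against −0.25 and −0.30 over all named genes. These are descriptions over genes whose points share 4 pooled groups and one normalisation.

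MRPS21 and MRPL52 lay away from this relation. MRPS21, the counterpart of bacterial S21, had only 30.2 FPKM in Kashmiri D15 and 33.3 in Jersey D15, yet fell by 1.84 and by 1.88 to 7.70 and 8.32 FPKM at D90. MRPL52 had 146 FPKM in Kashmiri D15 and 126 in Jersey D15, and its differences of −0.71 and −0.67 did not reach the limit. Both genes were picked out after their values were seen.

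**Figure D3:**
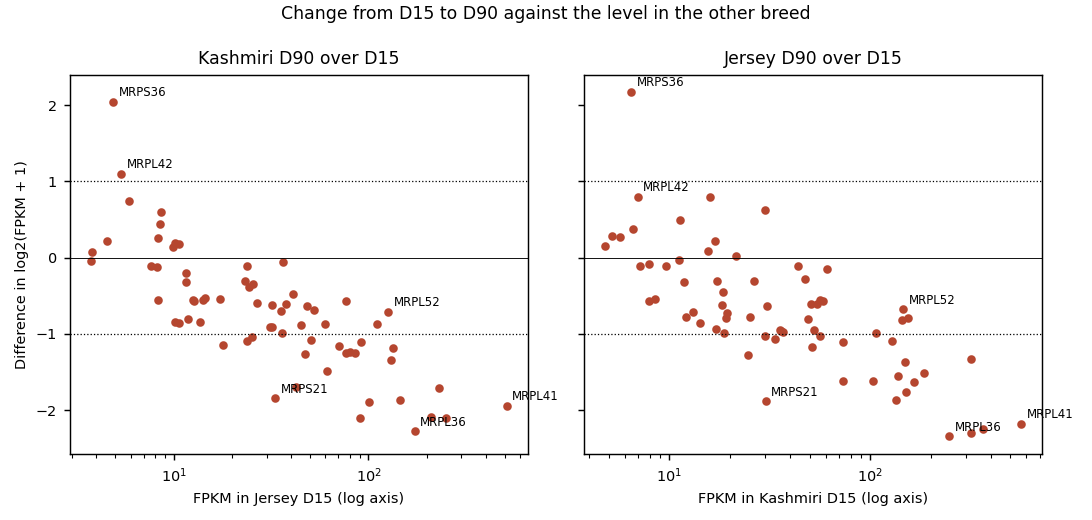
Change from D15 to D90 in each breed (vertical axis, difference in log2(FPKM + 1)) against the D15 level in the other breed (horizontal log axis, FPKM), 1 point for each of 69 genes. MRPL41 and MRPL36 at the right lie at −1.94 and −2.27 in Kashmiri cattle, and MRPS36 at the left at 2.04.

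MRPS36 was the only one of the 69 genes that rose in both breeds on the deposited scale. It had 6.46 FPKM in Kashmiri D15, 29.8 in Kashmiri D90 and 27.8 in Kashmiri D250, and 4.89, 25.6 and 16.6 FPKM in Jersey cattle. Every D90 and D250 value was above both D15 values. The D90 differences were 2.04 and 2.17. MRPS36 was first described as a small subunit protein and was later assigned to the 2-oxoglutarate dehydrogenase complex of the citric acid cycle, so its name and its place differ.

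MRPL42, which has no bacterial counterpart, had the next highest difference from D15 to D90 in both breeds. It had 6.95, 16.0 and 15.2 FPKM in Kashmiri and 5.39, 10.1 and 9.61 FPKM in Jersey cattle. It rose in Kashmiri cattle, with 1.10 at D90 and 1.03 at D250, and its Jersey differences of 0.80 and 0.73 did not reach the limit. D15 was also the lowest day in both breeds for MRPS10 and MRPS22. MRPS10, the counterpart of bacterial S10, had 15.9, 18.1 and 22.0 FPKM in Kashmiri and 10.7, 19.3 and 18.6 FPKM in Jersey cattle, and MRPL39 and MRPS10 were the genes that were higher at each step in Kashmiri cattle.

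The genes whose level varied least over the 6 groups were MRPL32, MRPL13 and MRPL47. MRPL32, which is cleaved by the m-AAA protease before it joins the ribosome, stayed between 6.50 and 8.17 FPKM. MRPL13 stayed between 17.0 and 25.0 FPKM, and MRPL47 between 7.57 and 11.7 FPKM. The widest ranges belonged to MRPS26, MRPL36 and MRPS34.

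After D90 the breeds parted in sign, although few single genes differed much. From D90 to D250 none of the 69 genes rose or fell in either breed. In Kashmiri cattle 39 were higher and 30 lower, with a median of 0.12, while 8.95% of all named genes rose and 8.77% fell. In Jersey cattle 58 of 69 were lower, with a median of −0.32, while 16.6% of all named genes rose, 4.22% fell and their median was 0.15. Rescaling changed these counts without turning the sign of a median of the 69 genes, while the Jersey median over all named genes turned to −0.07 and −0.21. Rescaled to the sum without milk protein genes, 19 genes rose in Kashmiri cattle (median 0.74) and 7 fell in Jersey cattle (median −0.69). On that scale 27.2% of all named genes rose in Kashmiri and 9.64% fell in Jersey cattle, with medians of 0.63 and −0.21.

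The largest Kashmiri differences at this step were those of MRPL14 and MRPL24, at 0.87 and 0.72. MRPL14, a protein of the subunit interface, went from 34.3 to 63.5 FPKM in the Kashmiri breed, and Jersey cattle had 25.8 and 25.5 FPKM. MRPS31 and MRPL52 were lowest, with −0.74 and −0.66. In Jersey cattle MRPS12 and MRPS6 were lowest, with −0.87 and −0.82, and MRPL49 and MRPL1 were highest, with 0.57 and 0.30. MRPS12 is the counterpart of the S12 protein of the bacterial decoding centre. It went from 20.2 to 10.6 FPKM in Jersey cattle and from 15.1 to 17.7 FPKM in Kashmiri cattle.

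The Jersey change less the Kashmiri change from D90 to D250 was below 0 for 55 of the 69 genes, with a median of −0.39, against 0.10 over all named genes. It passed 1 in size for 4 of 69 genes, MRPL24, MRPL27, MRPS12 and MRPS6, and for 25.0% of all named genes. From D15 to D90 the same quantity had a median of −0.02, was below 0 for 35 of 69 genes and passed 1 for none of them, against 22.9% of all named genes. The Kashmiri and Jersey changes correlated over the 69 genes with r of 0.91 from D15 to D90 and 0.29 from D90 to D250, and over all named genes with r of 0.55 and 0.22. With 1 value for each group these differences between breeds were not tested.

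**Figure D4:**
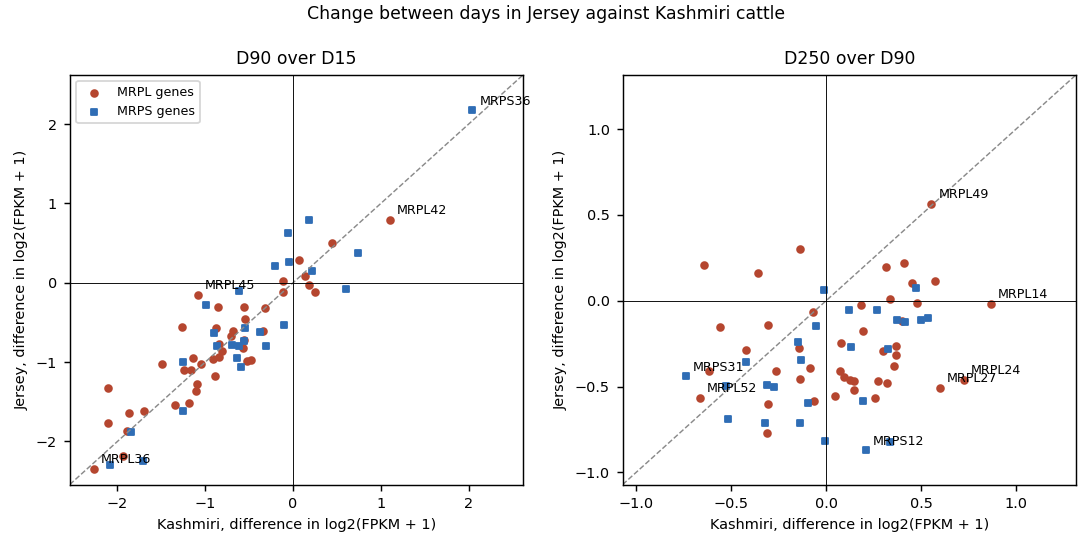
Change in Jersey cattle (vertical axis) against change in Kashmiri cattle (horizontal axis), as differences in log2(FPKM + 1), from D15 to D90 at the left and from D90 to D250 at the right, with MRPL genes as red circles and MRPS genes as blue squares. The points follow the dashed line of equal change at the left (r of 0.91), and most lie below it at the right (55 of 69).

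Neutrophil markers moved with the Jersey step from D90 to D250, from a sum of 6080 to 14607, against 526 to 652 in Kashmiri cattle. The epithelial sum without milk proteins went from 98.2 to 1364 in Jersey and from 679 to 2570 in Kashmiri cattle. Their part in the result was not tested.

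Over the whole course, from D15 to D250, 57 of 69 genes were lower in Kashmiri cattle, 20 fell and 2 rose, with a median of −0.72, while 14.5% of all named genes fell, 11.2% rose and their median was −0.04. This direction depended on the scale. Rescaled by the upper quartile the median was −0.45. Rescaled to the sum without milk protein genes it turned to 0.27, with 9 genes that rose and 3 that fell. On that last scale 39.7% of all named genes rose and 2.63% fell. The median over all named genes moved too, to 0.20 and 0.81, so that relative to it the 69 genes lay lower on each scale (−0.67 as deposited, and between −0.74 and −0.54 over all alternatives). In Jersey cattle 60 of 69 genes were lower, 32 fell and 1 rose, with a median of −0.91, while 17.9% of all named genes fell, 24.5% rose and their median was 0.07. The Jersey median was −1.01 and −1.05 on the rescaled values. The 19 genes that fell in both breeds were 95.0% of the Kashmiri list and 59.4% of the Jersey list.

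As deposited, the decline went on to D250 in more Jersey than Kashmiri genes. D250 was the lowest day for 52 of 69 genes in Jersey cattle and for 26 in Kashmiri cattle, in which D90 was the lowest for 37. A lower value at each step was seen for 47 genes in Jersey and 21 in Kashmiri cattle. These orders of days depend on the scale of each group. They were not counted over all named genes, so whether they differ from other genes is not known. The Jersey change from D15 to D250 was below the Kashmiri change by more than 1 for 3 of 69 genes, MRPS12, MRPS5 and MRPS11, while 29.2% of all named genes passed 1 either way. These 3 are counterparts of bacterial small subunit proteins.

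Between the breeds, Jersey cattle had the lower median, by little at D15 and D90, where one rescaling turned its sign, and by more at D250, where none did. At D15 the Jersey value was lower for 56 of 69 genes, none rose or fell, and the median was −0.25. Of all named genes 13.0% fell and 15.9% rose, with a median of −0.13. At D90 it was lower for 50 of 69, 3 fell and none rose, with a median of −0.24, while 15.9% of all named genes fell and 17.0% rose. Rescaled to the sum without milk protein genes, the medians at D15 and D90 turned to 0.13 and 0.08, so no direction between the breeds held on every scale at these days. Relative to all named genes they stayed below 0 on each scale, between −0.23 and −0.10 at D15 and between −0.26 and −0.19 at D90.

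At D250 the Jersey value was lower for 68 of 69 genes, with a median of −0.65, and 9 fell and none rose. Among all named genes 11.7% fell and 22.8% rose, with a median of −0.10. The rescaled medians were −1.11 and −1.36, with 44 and 57 genes that fell. On these scales 26.7% and 37.2% of all named genes fell, with medians of −0.52 and −0.74. MRPS26, MRPL14 and 7 other genes fell. MRPS26 was at 33.9 FPKM in Jersey against 89.4 in Kashmiri cattle, a difference of −1.37, and MRPL14 was at 25.5 against 63.5 FPKM, a difference of −1.28. MRPL1 was the 1 gene with a higher Jersey value, at 6.24 against 4.94 FPKM, a sign that both rescalings turned.

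Neutrophil markers summed to 14607 in Jersey against 652 in Kashmiri cattle at D250, and to 5156 against 203 at D15, where the median of the 69 genes was −0.25. The epithelial sum without milk proteins was lower in Jersey than in Kashmiri cattle at each day, but at D15 it was carried by KRT19 and ELF5 (3195 and 1799 of 5780 in Kashmiri cattle). At D15 the median log2 level of the epithelial list, with LALBA and CSN2 at 0 included, was 5.95 in Jersey and 5.76 in Kashmiri cattle. KRT8 (135 against 55.5 FPKM) and CLDN4 (110 against 41.3 FPKM) were higher in Jersey cattle at D15. All the other epithelial markers with a value at D15 (KRT7, KRT18, KRT19, EPCAM, CDH1, ELF5, CLDN3 and EHF) were lower. The part of these cells in the difference was not tested.

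MRPL3, MRPL49 and MRPS26 showed the lowest Jersey values relative to Kashmiri cattle at the earlier days. MRPL3, a core protein near the peptidyl transferase centre, had 50.6 against 25.5 FPKM at D15 and 39.6 against 16.3 FPKM at D90. The MRPL3 differences were −0.96 and −1.23. MRPL49 had 26.3 against 12.7 FPKM at D15, a difference of −0.99. MRPS12 and MRPS11 were highest in Jersey relative to Kashmiri cattle at D15, with 0.48 and 0.40, and MRPS6 and MRPL45 at D90, with 0.95 and 0.67. None of these 4 reached the limit.

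By place in the ribosome, the stalk genes MRPL10 and MRPL11, which hold the factors that drive elongation, were lower at D90 than at D15 in both breeds. MRPL11 went from 186 to 81.6 and 67.7 FPKM in Kashmiri and from 134 to 46.2 and 34.5 FPKM in Jersey cattle. MRPL10 went from 35.6 to 15.5 and 19.6 FPKM in Kashmiri and from 17.9 to 8.82 and 10.2 FPKM in Jersey cattle. Both were lower in Jersey than in Kashmiri cattle at each day, by 0.47 to 0.95 on the log2 scale. MRPL12 was not analysed here.

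The genes at the exit of the peptide tunnel did not move together. MRPL24 fell from D15 to D90 in both breeds, from 56.6 to 19.5 FPKM in Kashmiri and from 61.1 to 29.5 FPKM in Jersey cattle. MRPL45, which holds the ribosome at the inner membrane, went from 61.2 to 28.3 FPKM in Kashmiri cattle, a fall of 1.09, but from 50.9 to 45.7 FPKM in Jersey cattle, a difference of −0.15. MRPL22 was higher at D90 than at D15 in both breeds, with 15.8 against 11.3 FPKM in Kashmiri and 12.4 against 8.49 FPKM in Jersey cattle. MRPL47 had differences of 0.25 and −0.11.

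In the central protuberance, the knob of the large subunit where the mitochondrial ribosome has added proteins, all 4 genes were lower at D90 than at D15 in both breeds. MRPL40 went from 137 to 53.6 and 43.0 FPKM in Kashmiri and from 130 to 43.8 and 25.3 FPKM in Jersey cattle. MRPL46 went from 24.7 to 11.0 and 11.8 FPKM in Kashmiri and from 23.7 to 9.18 and 6.47 FPKM in Jersey cattle. MRPL40 and MRPL46 fell in both breeds at D90, and MRPL38 and MRPL48 did not. MRPL38 had differences of −0.48 and −0.97, and MRPL48, at 11.9 and 11.6 FPKM in D15, had −0.32 in each breed.

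The 3 genes of the MRPS18 family, MRPS18A, MRPS18B and MRPS18C, encode related proteins that occupy different sites, MRPS18A in the large subunit. MRPS18A had 43.8, 28.3 and 39.7 FPKM in Kashmiri and 31.8, 29.5 and 31.2 FPKM in Jersey cattle. MRPS18B had 47.6, 23.5 and 33.7 FPKM in Kashmiri and 36.1, 29.6 and 27.3 FPKM in Jersey cattle. MRPS18C was lower, at 17.0, 14.6 and 19.9 FPKM in Kashmiri and 11.6, 13.7 and 12.4 FPKM in Jersey cattle. None of the 3 rose or fell in any comparison. Reads with several matches were discarded, so reads shared between such related genes would have been left out of the counting.

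MRPL44, a protein with the fold of RNase III, and MRPS27, a protein with pentatricopeptide repeats, were lower at D90 and did not reach the limit. MRPL44 went from 13.2 to 8.62 FPKM in Kashmiri and from 12.6 to 7.26 FPKM in Jersey cattle. MRPS27 went from 19.3 to 12.8 FPKM in Kashmiri and from 14.2 to 8.14 FPKM in Jersey cattle.

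The subunits, as given by the gene names, were set side by side without a test. From D15 to D90 the median of the large subunit genes was −0.85 and that of the small subunit genes −0.58 in the Kashmiri breed, with −0.86 and −0.63 in the Jersey breed. In Kashmiri cattle 18 of 43 large and 5 of 26 small subunit genes fell, and in Jersey cattle 16 of 43 and 5 of 26. Those are 41.9% and 37.2% of the large subunit genes and 19.2% of the small subunit genes in each breed, where 18.8% and 16.9% of all named genes fell. The large less the small subunit median lay between −0.42 and 0.16 over the 9 comparisons. It was also computed with MRPS18A and MRPS30 counted in the large subunit, where they sit. For D90 over D15 it then stayed at −0.27 in Kashmiri cattle and went from −0.24 to −0.14 in Jersey cattle. For D250 over D15 it went from −0.42 to −0.36 in Kashmiri and from −0.24 to −0.02 in Jersey cattle. The 36 genes with a bacterial counterpart had D90 medians of −0.85 and −0.94, and the 30 without one −0.65 and −0.64, in Kashmiri and Jersey cattle. From D15 to D250 in Jersey cattle 21 of 36 and 10 of 30 fell, beside 17.9% of all named genes.

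A list of 6 genes with other names was set beside them as ribosomal proteins of the mitochondrion, though LACTB in it is not an established one. Among them GADD45GIP1 stood with the abundant genes above. It had 221, 42.6 and 44.4 FPKM in Kashmiri and 107, 15.8 and 18.4 FPKM in Jersey cattle, and fell by 2.35 and by 2.68 from D15 to D90. DAP3, which binds GTP in the small subunit, stayed between 7.21 and 9.58 FPKM in all groups. PTCD3, joined with a small nucleolar RNA gene in its entry, fell in Kashmiri and rose in Jersey cattle. Over the 6 genes 2 fell and none rose at D90 in Kashmiri cattle, and 2 fell and 1 rose in Jersey cattle. Of all named genes 18.8% and 16.9% fell, and 14.7% and 12.8% rose. LACTB, and AURKAIP1 in an entry joined with CCNL2, neither rose nor fell at this step.

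The genes that assemble and serve the ribosome were compared in the same way. Of the genes for assembly and rRNA modification, 2 of 20 fell from D15 to D90 in Kashmiri and 6 of 21 in Jersey cattle, and none rose, with medians of −0.45 and −0.59, where 18.8% and 16.9% of all named genes fell. From D15 to D250, 7 of 21 fell in each breed, with medians of −0.59 and −0.78, beside 14.5% and 17.9% of all named genes. At D90, YBEY, an rRNA-processing enzyme, had the lowest Kashmiri difference, with −1.72, and MALSU1, which keeps the immature large subunit from joining, the lowest Jersey difference, with −1.32. Of the mitochondrial aminoacyl-tRNA synthetases, 1 of 15 and 1 of 14 fell, CARS2 in each breed, with medians of −0.26 and −0.19. Of the translation factors, 1 of 9 fell in Kashmiri and 2 of 8 in Jersey cattle, with medians of −0.10 and 0.32. MTIF3, an initiation factor, fell from 31.7 to 6.58 FPKM in Kashmiri and from 19.0 to 7.76 FPKM in Jersey cattle. TUFM, the elongation factor Tu, went from 103 to 62.6 FPKM in Kashmiri and fell from 84.3 to 41.1 FPKM in Jersey cattle.

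Cytosolic ribosomal protein genes had far higher levels, and their values are set beside those of the mitochondrial genes. Of 44 genes compared, 6 fell and 2 rose from D15 to D90 in Kashmiri cattle, with a median of −0.32, and 26 of 43 fell in Jersey cattle, with a median of −1.23, where 18.8% and 16.9% of all named genes fell. From D15 to D250, 30 of 44 and 22 of 43 cytosolic genes fell, with medians of −1.43 and −1.02, beside −0.72 and −0.91 for the mitochondrial genes and falls of 14.5% and 17.9% of all named genes. From D90 to D250 in Kashmiri cattle, where none of the 69 mitochondrial genes fell, 29 of 44 cytosolic genes did, with a median of −1.10, as did 8.77% of all named genes. Between the breeds the median of the cytosolic genes was −1.08 at D15 and −2.0 at D90, against −0.25 and −0.24 for the mitochondrial genes. At D90, 42 of 44 cytosolic and 3 of 69 mitochondrial genes were lower in Jersey cattle by at least 1, as were 15.9% of all named genes. At D250 the medians were nearer, at −0.74 and −0.65. A rescaling shifts both gene sets nearly alike, and the difference between them was not tested. Cytosolic ribosomal protein genes have many processed copies in mammalian genomes, and reads with several matches were discarded.

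**Figure D5:**
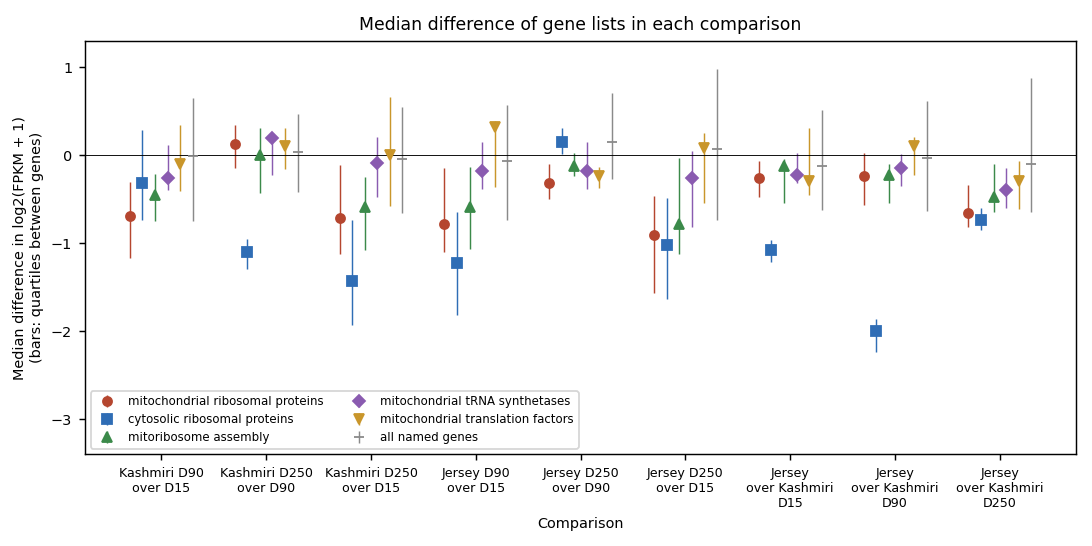
Median difference in log2(FPKM + 1) of 5 gene lists and of all named genes in the 9 comparisons, with bars from the lower to the upper quartile between genes. The cytosolic ribosomal protein genes lie at −1.08 and −2.0 for Jersey over Kashmiri at D15 and D90, where the mitochondrial ribosomal protein genes lie at −0.25 and −0.24.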

How the data were processed

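RNA from milk cells captured with cytokeratin 18 beads was made into stranded mRNA libraries. After trimming by Trimmomatic, alignment to UMD3.1, a cattle genome build, by Bowtie2 and TopHat and a filter for unique matches, the authors deposited Cuffdiff FPKM values, 1 for each group of breed and stage, with the libraries of a group pooled. The columns called local were read as Kashmiri cattle. Read numbers behind each value are unknown, so no interval or test could be given. Genes joined in one entry share its value.

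From these FPKM values, Python 3.11.15 with numpy 2.4.6 and pandas 2.3.3 computed log2(FPKM + 1) differences for 9 comparisons over all named genes with at least 1 FPKM in either group, and counted absolute differences of at least 1. The calculation was tested on simulated data. Correlations used scipy 1.17.1 and figures matplotlib 3.10.9. Of 61264 rows, 36143 had no name and were not used. No column of samples was left unmapped.

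The genes and all lists (structural groups, mitochondrial translation, cytosolic ribosomal proteins, cell markers) were chosen with earlier results of these data known. The plan was to name the 5 highest and 5 lowest members by mean level, and the 2 highest and 2 lowest in each comparison. It also took the 3 with the widest and narrowest range, those listed at 0 and the MRPS18 family. The genes of the stalk, exit site, central protuberance and decoding centre were added, with MRPL44, MRPS27 and MRPS36. From other lists at most 3 genes with the largest differences were planned. Genes outside this plan were named too, among them MRPL39, MRPS5, MRPS21, MRPS22, DAP3 and OXA1L. Alternatives were another pseudocount, other expression limits, 2 rescalings, a stricter fold, summed or joined rows and another background. Promoter sequences were not used here. Symbols of 69 of the 70 genes matched the RefSeq gene table of another cattle assembly, MRPS36 being the exception.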

Additional observations from a re-analysis of the deposited data

How the results depend on the processing

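Without replicates, no value has an error, and stability below means stability to the choices of calculation. No paired analysis was possible because the deposited values are pooled over the samples of a group and carry no replicate number. Leaving out single libraries was not possible for the same reason. A pseudocount of 0.1 FPKM changed 1 count, with 1 gene lower by at least 1 in Jersey over Kashmiri at D15 in place of 0. A limit of 0.01 FPKM, at least 1 FPKM in both groups, summing the rows of a name and leaving out joined names moved no count by over 1.5 times. Upper-quartile rescaling gave 4 falls in place of 0 for Jersey D250 over D90 and for Jersey over Kashmiri at D15, and 44 in place of 9 at D250. Rescaling to the sum without milk protein genes gave 12 falls for Kashmiri D90 over D15; a median of 0.74 and 19 rises for Kashmiri D250 over D90; a median of 0.27 with 9 rises and 3 falls for Kashmiri D250 over D15; 3 rises for Jersey D90 over D15; 7 falls for Jersey D250 over D90; 2 rises and 0 falls for Jersey over Kashmiri at D90; and a median of −1.36 with 57 falls at D250. The cause of these shifts is the scaling itself, which adds nearly one constant to every gene of a comparison. The shares of all named genes moved as well. Rescaled by the upper quartile, 6.52% fell for Jersey D250 over D90, 15.1% for Jersey over Kashmiri at D15 and 26.7% at D250. Rescaled to the sum without milk protein genes, 13.5% fell for Kashmiri D90 over D15 and 9.64% for Jersey D250 over D90. On that scale 27.2% rose for Kashmiri D250 over D90, and 39.7% rose and 2.63% fell for Kashmiri D250 over D15. For Jersey D90 over D15 18.2% rose. For Jersey over Kashmiri 22.8% rose and 11.8% fell at D90, and 37.2% fell at D250. The casein genes CSN1S1 and CSN2, left out of the last sum, were listed at 0 in every group but Jersey D90. A limit of 2 on the log2 difference left 4 falls and 1 rise for Kashmiri D90 over D15. It left 4 falls and 0 rises for Kashmiri D250 over D15, and 4 falls for Jersey D90 over D15. For Jersey D250 over D15 it left 8 falls and 0 rises. In Jersey over Kashmiri at D90 and D250 it left 0 falls. The share of all named genes at this limit was not computed, so these counts stand without a background. The median less that of all named genes kept its sign in all 9 comparisons under each alternative, including a background chosen after seeing the data, the 7196 named genes with a mean FPKM in the range of the members.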

Other observations

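Of 8 genes for mitochondrial transcription and mRNA upkeep none fell in any of the 9 comparisons, where 4.22% to 18.8% of all named genes fell. MTPAP, the mitochondrial poly(A) polymerase, was the 1 that rose. It went from 4.38 FPKM in Jersey D15 to 16.8 in Jersey D250, where 24.5% of all named genes rose. Its difference was also 1.54 in Jersey over Kashmiri at D250, where 22.8% of all named genes rose. OXA1L, which inserts mitochondrial products into the inner membrane, stayed between 23.9 and 31.2 FPKM in all groups, while LETM1 went from 19.6 to 11.6 FPKM in Kashmiri and from 22.0 to 9.71 FPKM in Jersey cattle from D15 to D250, where the Jersey difference was −1.10. Among 10 genes often read as measures of mitochondrial mass, the medians for D90 over D15 were −0.16 in Kashmiri and 0.10 in Jersey cattle, and 1 of 10 fell in each, where 18.8% and 16.9% of all named genes fell. From D15 to D250, 1 of 10 fell in Kashmiri and 2 of 10 in Jersey cattle, beside 14.5% and 17.9% of all named genes. From D15 to D90 PHB, the prohibitin gene, fell from 195 to 69.5 FPKM in Kashmiri and from 147 to 68.8 FPKM in Jersey cattle, whereas CS, citrate synthase, went from 14.6 to 27.5 and from 16.5 to 29.8 FPKM.

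Of 6 regulators of mitochondrial biogenesis that entered the comparison, 2 rose and none fell from D15 to D90 in Kashmiri cattle, NRF1 from 2.05 to 5.98 FPKM and MYC from 10.8 to 30.5 FPKM, beside 14.7% of all named genes that rose and 18.8% that fell. None of the 6 rose or fell from D15 to D90 in Jersey cattle. From D15 to D250 in Jersey cattle YY1 rose by 1.26, from 28.7 to 69.9 FPKM, where 24.5% of all named genes rose. PPARGC1A and PPARGC1B stayed under 1 FPKM in every group. ESRRA was higher in Jersey cattle at each day, at 58.8 against 28.0 FPKM at D15 and 69.4 against 22.5 FPKM at D250.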
